A study of Mus musculus with 12 samples.

Results

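The comparison of Tnnt2low with Tnnt2high cardiomyocytes of Glut1 transgenic hearts rests on 8 of the 12 RNA-seq libraries, which come from hearts 3, 4, 5 and 8 and give 1 library of each population per heart. The libraries were chosen by their sample labels, as those of the Glut1 overexpression genotype, and every gene of the count files belongs to the comparison. The mice were CD1 at postnatal day 1, and the Glut1 transgenic genotype joins 3 alleles, which are the aMHC-hGLUT1 transgene, aMHC-Cre and 1 copy of the R26 YFP reporter. The 4 WT libraries, 2 per population, carry the Cre and the reporter but not the hGLUT1 transgene, and all numbers of the WT labels begin with the same heart number, so both WT pairs may come from a single heart. No group was treated or injured. The labels name the sorted fractions by their Mitotracker signal, and higher Mitotracker was read as Tnnt2low and lower Mitotracker as Tnnt2high, as in the study. The aMHC promoter drives both the Cre and human GLUT1 in heart muscle cells, so the YFP gate selects the cardiomyocyte lineage, and the transgene adds transporter from a human sequence. The labels describe an extract of heart tissue, whereas the methods describe sorted cells, and the latter description was used.

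Reads in genes numbered 7301762 to 9815069 in Tnnt2low and 4065306 to 5241475 in Tnnt2high libraries of Glut1 transgenic hearts, and the larger number within a heart was always that of Tnnt2low cells. Reads that lay outside every exon were 0.886 to 1.07 times as many as those in genes in Tnnt2low and 2.26 to 2.63 times as many in Tnnt2high libraries (p = 0.0286 by a two-sided exact permutation test of libraries, which assigned libraries freely and cannot give less for 4 against 4). With the populations exchanged only within hearts the exact permutation p was 0.125, the smallest that 4 pairs allow. Levels are given as CPM, read counts brought to a fixed library size after TMM scaling, which do not account for the length of a gene and are compared only between libraries. Of 24421 genes, 11178 had enough reads to be tested. Heart muscle genes were abundant in all 8 libraries. Myh6, the alpha myosin heavy chain, stood at 66439.9, 63795, 59481 and 71797 CPM in the Tnnt2low libraries of hearts 3, 4, 5 and 8 and 53777, 52862, 62992 and 61401 CPM in the matching Tnnt2high libraries. Tnnt2, cardiac troponin T, stood at 14027, 13105, 12483 and 13856 CPM in Tnnt2low and 18893, 20908, 16095 and 16206 CPM in Tnnt2high, and the populations did not overlap. Tnnt2 fell with a log2 fold change of -0.42 (SE 0.09, adjusted p = 0.0066). Its value was 0.09 once an offset for transcript length and GC content was added (adjusted p = 0.554), which ends the call and turns its sign.

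Heart muscle cells of the mouse divide before birth and leave the cell cycle in the first week after it. Entry into mitosis is prepared by the transcription factors FoxM1 and B-Myb, which act with the MuvB complex on a shared set of promoters. These promoters often carry a CHR element, a site of MuvB near the start of transcription with the letters TTTGAA, and CCAAT boxes, which bind NF-Y. The gene products then condense the chromosomes, build the spindle and the kinetochores that attach chromosomes to it, and lay down the central spindle and the contractile ring for cytokinesis. Cardiomyocytes around birth often finish mitosis without cytokinesis and keep 2 nuclei.

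The promoters of 4 rising mitotic genes are shown as examples of the genes on which the account of mitosis turns. Each is a window of 250 bases before to 50 bases after the start site, on build GRCm38.p6 from RefSeq, read 5′ to 3′ on the strand of the gene. Capitals mark TTTGAA (or its reverse complement TTCAAA) and CCAAT (or its reverse complement ATTGG). The genes were picked from those named by the fixed rule after the letters were seen. Mki67 encodes the Ki-67 protein of the mitotic chromosome surface (chr7:135716330-135716629, minus strand). Ccnb2 encodes cyclin B2, a partner of the mitotic kinase Cdk1 (chr9:70421505-70421804, minus strand). Aspm acts at the spindle poles (chr1:139454523-139454822, plus strand). Racgap1 is a subunit of centralspindlin, the complex that bundles the central spindle before cytokinesis (chr15:99651607-99651906, minus strand).
Mki67: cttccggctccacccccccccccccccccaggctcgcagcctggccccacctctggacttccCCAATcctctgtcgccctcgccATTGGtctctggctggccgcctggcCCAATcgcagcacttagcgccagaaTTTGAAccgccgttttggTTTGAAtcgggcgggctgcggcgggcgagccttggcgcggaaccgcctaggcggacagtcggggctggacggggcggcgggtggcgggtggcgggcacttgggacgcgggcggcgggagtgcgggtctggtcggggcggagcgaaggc
Ccnb2: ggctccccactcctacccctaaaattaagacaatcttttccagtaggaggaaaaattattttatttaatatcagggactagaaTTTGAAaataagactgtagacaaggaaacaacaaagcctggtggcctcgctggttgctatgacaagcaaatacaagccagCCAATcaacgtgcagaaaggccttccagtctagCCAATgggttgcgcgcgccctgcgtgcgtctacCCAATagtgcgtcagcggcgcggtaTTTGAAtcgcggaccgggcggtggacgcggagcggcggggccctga
Aspm: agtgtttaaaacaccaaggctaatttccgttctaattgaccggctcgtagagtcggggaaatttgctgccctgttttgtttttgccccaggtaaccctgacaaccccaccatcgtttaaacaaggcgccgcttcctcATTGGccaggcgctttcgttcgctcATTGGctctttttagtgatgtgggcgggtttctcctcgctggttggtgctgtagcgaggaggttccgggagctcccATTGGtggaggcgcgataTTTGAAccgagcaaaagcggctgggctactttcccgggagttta
Racgap1: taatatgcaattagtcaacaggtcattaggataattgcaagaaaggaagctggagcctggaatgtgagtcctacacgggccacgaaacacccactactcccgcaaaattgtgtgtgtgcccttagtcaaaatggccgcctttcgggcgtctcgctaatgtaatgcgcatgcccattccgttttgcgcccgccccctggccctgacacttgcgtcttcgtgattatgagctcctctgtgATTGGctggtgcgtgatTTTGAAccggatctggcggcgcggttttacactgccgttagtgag
In Aspm, Racgap1 and Ccnb2 a TTTGAA lay 6, 5 and 4 bases past the start site, and in Mki67 the pair lay 116 and 98 bases before it. Over all 32851 promoter windows of the RefSeq table, 17.9% held TTTGAA on either strand, 37.4% held CCAAT on either strand and 6.95% held both, where overlapping matches were allowed. Over the 10893 windows of genes tested here the shares were 11.5%, 37.5% and 4.63%. Of 47 mitotic genes that rose in Tnnt2low cells, 38 had a window in the table. Their 42 windows held TTTGAA in 35 cases, CCAAT in 35 and both in 29. The 58 mitotic genes with a window that passed no test had 64 windows, with TTTGAA in 27, CCAAT in 39 and both in 22. These counts describe letters in a window and do not show binding.

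Of the 11178 genes tested, 1208 (10.8%) rose and 1218 (10.9%) fell in Tnnt2low relative to Tnnt2high cardiomyocytes at an adjusted p under 0.05, in edgeR's quasi-likelihood test with the heart as a block. With a fold change over 1.5 as well, 778 (6.96%) rose and 924 (8.27%) fell. Of all 2426 changed genes, 2359 had the same direction in all 4 hearts. The calls came from the same 4 pairs, which favours genes of 1 direction, so this count is no separate result. The 4 libraries of a population did not overlap with those of the other for 1317 genes (11.8%) that were higher and 1334 (11.9%) that were lower in Tnnt2low. Fold changes followed the length of the transcript. The length of a gene was that of a single transcript, the longest, with protein-coding transcripts preferred. Genes were put in 10 bins of equal size by this length. The median log2 fold change was -0.70 in the shortest bin, up to 1288 bases, where 2 rose and 479 fell. It was 0.51 in the longest bin, from 6932 bases, where 481 rose and 22 fell. The median length was 6302 bases over genes that rose and 1520 bases over genes that fell. When each library was given an offset for length and GC content, 155 (1.39%) rose and 263 (2.35%) fell, of which 140 and 236 were among the genes above. The share of rises among calls was then 37.1%, against 49.8%. The medians of the bins rose with length in each heart, and the span was widest in heart 3. Reads outside exons differed between the populations, as given above, and their part in the fold changes was not tested. For most gene groups that follow, the value with the offset stands beside the main one.

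**Figure D1:**
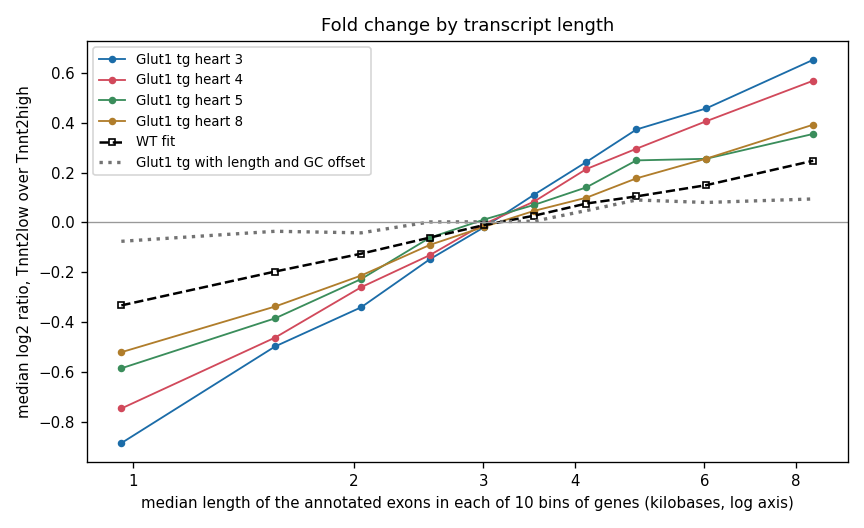
Median log2 ratio of Tnnt2low over Tnnt2high (vertical axis) against the median transcript length of each of 10 bins of genes (horizontal log axis, kilobases) for each Glut1 transgenic heart, the WT fit and the Glut1 transgenic fit with the offset. The medians rise from the shortest to the longest bin, from -0.89 to 0.65 in heart 3 and from -0.52 to 0.39 in heart 8, and from -0.08 to 0.09 with the offset.

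Hearts 3 and 4 carried larger differences than hearts 5 and 8. Without heart 3, 511 genes rose and 663 fell, and without heart 4, 526 rose and 616 fell. Genes called in 3 hearts were then read in the heart that was left out. Of the 511 genes that rose without heart 3, 504 were higher in Tnnt2low cells of heart 3, with a median log2 ratio of 0.84. Of the 526 that rose without heart 4, 518 were higher there, with a median of 0.74. For hearts 5 and 8 these counts were 908 of 1012 and 944 of 1063, with medians of 0.45 and 0.43. Of the genes that fell, 647 of 661 with a value were lower in heart 3, 599 of 612 in heart 4, 916 of 1015 in heart 5 and 995 of 1097 in heart 8.

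Many genes of mitosis rose in Tnnt2low cardiomyocytes and 0 fell. Of 115 genes tested in 4 lists (kinetochore and spindle, cytokinesis, mitotic cyclins and regulators, and chromosome condensation), 47 rose, where 10.8% of all genes did. Their median log2 fold change was 0.79, against 0.01 over all genes, and 0.81 with the offset, under which 26 of them rose (1.39% of all genes). In hearts 3, 4, 5 and 8 the median log2 ratio of these 115 genes was 1.05, 1.27, 0.52 and 0.31. The summed level of the 4 lists was 5493, 6144, 3433 and 2645 CPM in Tnnt2low and 2565, 2218, 2431 and 1993 CPM in Tnnt2high cells of hearts 3, 4, 5 and 8. It was higher in Tnnt2low cells of every heart, and all 4 Tnnt2low values lay above all Tnnt2high values. The rise of the sum was above 2-fold in hearts 3 and 4 and under 1.5-fold in hearts 5 and 8. Without heart 3 the number that rose was 24, and without heart 4 it was 22. In RNA of a sorted population, more cells in mitosis and more of such RNA per cell cannot be told apart.

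**Figure D2:**
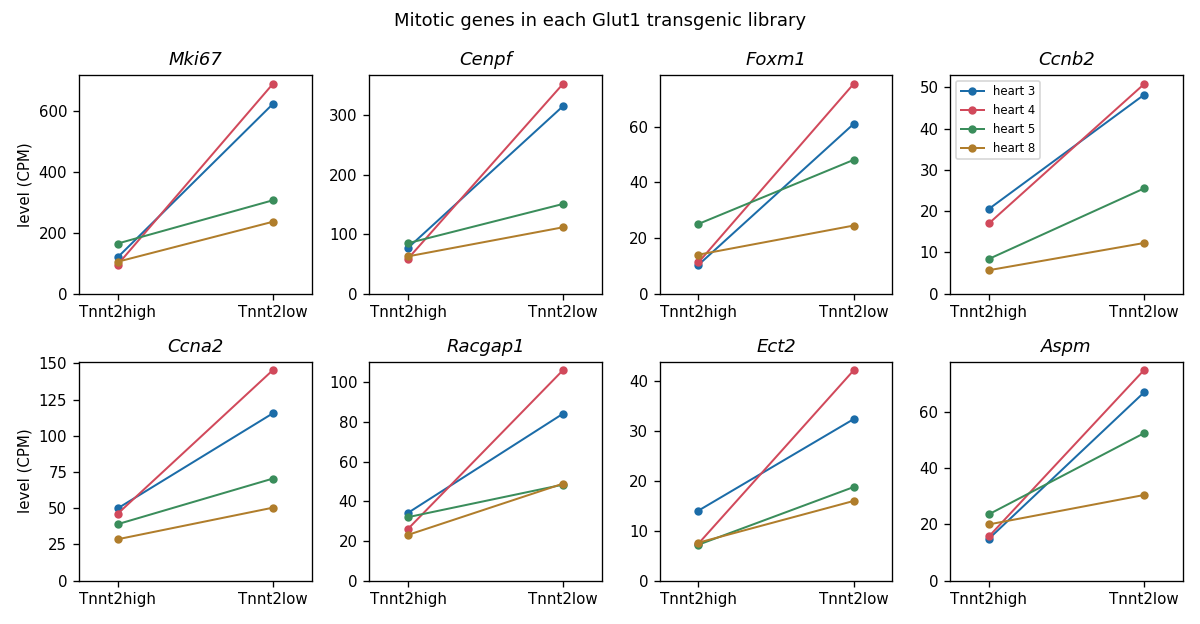
Level in CPM (vertical axes) of 8 mitotic genes in Tnnt2high and Tnnt2low libraries (horizontal axes), where each point is 1 library and a line joins the populations of 1 heart. The 8 genes were picked from those called higher, and Mki67, Cenpf, Foxm1, Ect2 and Aspm were named by a rule that required a rise in all 4 hearts. Their agreement across hearts thus follows from the choice, and mitotic genes without a call, such as Cdk1, are not shown. All 8 genes are higher in Tnnt2low cells of every heart, with the steepest lines in hearts 3 and 4, as for Mki67 at 622 and 688 CPM against 119 and 95.6 CPM.

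Cytokinesis genes were called in the largest share of members among the mitotic lists, with 11 of 13 higher and a median of 1.23 (1.05 with the offset, where 7 rose). Iqgap3, a scaffold of the cell cortex, stood at 86.6, 93.6, 41.0 and 31.6 CPM in the Tnnt2low libraries of hearts 3, 4, 5 and 8 and 27.7, 17.3, 23.1 and 12.4 CPM in the matching Tnnt2high libraries. Its Tnnt2low values all lay above the Tnnt2high values, with a log2 fold change of 1.57 (SE 0.23, adjusted p = 0.00184). Racgap1, whose promoter is shown above, stood at 84.3, 106, 48.4 and 48.9 CPM in Tnnt2low and 34.2, 26.1, 32.01 and 23.1 CPM in Tnnt2high. The populations did not overlap, and Racgap1 had a log2 fold change of 1.251 (SE 0.21, adjusted p = 0.00295). Racgap1 shares 7.89% of its 50-base words with transcripts of another locus. Ect2 activates the small GTPase RhoA at the site of the contractile ring. Its level was 32.4, 42.2, 18.8 and 15.98 CPM in Tnnt2low and 14.0, 7.42, 7.195 and 7.61 CPM in Tnnt2high, with a log2 fold change of 1.53 (SE 0.27, adjusted p = 0.0036). Arhgap11a, a GTPase-activating protein for RhoA, had a log2 fold change of 1.56 (adjusted p = 0.00175), Kif20b of 1.48 (adjusted p = 0.00221) and Kif20a of 0.96 (adjusted p = 0.00338), where both of the latter encode kinesins of the midzone. These values were 1.34, 1.30 and 0.86 with the offset, and all remained below an adjusted p of 0.05.

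Of 63 kinetochore and spindle genes, 22 rose, with a median of 0.82 (0.81 with the offset, where 12 rose). Cenpf, a large protein of the outer kinetochore, stood at 315, 353, 151 and 112 CPM in the Tnnt2low libraries of hearts 3, 4, 5 and 8 and 77.1, 59.1, 84.9 and 62.8 CPM in the matching Tnnt2high libraries. The gap between populations was widest in heart 4, and Cenpf had a log2 fold change of 1.56 (SE 0.27, adjusted p = 0.00312). Cenpe, the kinesin that carries chromosomes to the spindle equator, was at 73.4, 69.0, 31.5 and 37.3 CPM in Tnnt2low and 22.6, 16.8, 18.6 and 15.7 CPM in Tnnt2high. Every Tnnt2low value of Cenpe lay above the highest Tnnt2high value (log2 fold change of 1.44, SE 0.21, adjusted p = 0.00183). Aspm had 66.9, 74.9, 52.4 and 30.4 CPM in Tnnt2low and 14.9, 15.7, 23.6 and 19.97 CPM in Tnnt2high, with no overlap and a log2 fold change of 1.54 (SE 0.26, adjusted p = 0.00317). Knstrn, which encodes kinastrin of the kinetochore, had a log2 fold change of 1.26 (adjusted p = 0.00284), and Ckap2l, a spindle protein, of 1.36 (adjusted p = 0.00297). Kifc1, the minus-end kinesin that focuses spindle poles, had 1.80 (adjusted p = 0.002), but 47.6% of its words occur at another locus and its value is uncertain.

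Among 29 mitotic cyclins and regulators, 10 rose, with a median of 0.66 (0.66 with the offset, where 6 rose). Foxm1, the transcription factor named above, stood at 61.0, 75.3, 48.0 and 24.5 CPM in the Tnnt2low libraries of hearts 3, 4, 5 and 8 and 10.4, 11.3, 25.1 and 14.0 CPM in the matching Tnnt2high libraries. In heart 8 its Tnnt2low value was below the Tnnt2high value of heart 5, so the populations overlapped, but within each heart Tnnt2low was higher (log2 fold change of 1.74, SE 0.32, adjusted p = 0.0043). Ccnb2 was at 48.2, 50.8, 25.5 and 12.3 CPM in Tnnt2low and 20.6, 17.0, 8.44 and 5.70 CPM in Tnnt2high. Levels of Ccnb2 in hearts 5 and 8 were lower in both populations than in hearts 3 and 4, and within each heart Tnnt2low was higher, with a log2 fold change of 1.38 (SE 0.19, adjusted p = 0.00167). Ccna2, cyclin A2 of the S and G2 phases, had 116, 145, 70.4 and 50.3 CPM in Tnnt2low and 49.9, 46.2, 39.0 and 28.5 CPM in Tnnt2high and a log2 fold change of 1.14 (SE 0.16, adjusted p = 0.00172). E2f8, an E2F repressor of late S phase, had a log2 fold change of 1.28 (adjusted p = 0.00452), and Mastl, the Greatwall kinase, of 1.55 (adjusted p = 0.0172). The populations overlapped for Mastl, which did not pass with the offset (1.33, adjusted p = 0.0826) or in edgeR without the heart as a block (adjusted p = 0.0844). Plk1, a mitotic kinase, had 1.03 (adjusted p = 0.0376), and the cyclin gene Ccnb1 1.61 (adjusted p = 0.0325), where 42.1% of the words of Ccnb1 are shared. Not every regulator passed. Cdk1, the mitotic kinase itself, stood at 42.2, 55.0, 30.4 and 23.0 CPM in Tnnt2low and 32.2, 22.5, 32.01 and 32.6 CPM in Tnnt2high, with overlap and a log2 fold change of 0.27 (SE 0.25, adjusted p = 0.494). Aurkb, of the chromosomal passenger complex, had 0.75 (adjusted p = 0.283) and Mybl2, which encodes B-Myb, -0.15 (adjusted p = 0.891).

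Of 10 condensation genes, 4 rose, with a median of 0.60 (0.60 with the offset, where 1 rose). Mki67 stood at 622, 688, 306 and 236 CPM in the Tnnt2low libraries of hearts 3, 4, 5 and 8 and 119, 95.6, 164 and 105 CPM in the matching Tnnt2high libraries. The Tnnt2low values of hearts 3 and 4 were more than 2 times those of hearts 5 and 8 on average, no Tnnt2high library reached the lowest Tnnt2low value, and Mki67 had a log2 fold change of 1.82 (SE 0.28, adjusted p = 0.00215). Top2a, topoisomerase II alpha, was at 239, 307, 144 and 92.7 CPM in Tnnt2low and 91.0, 68.4, 100.2 and 84.4 CPM in Tnnt2high. In heart 8 the Tnnt2low level of Top2a was close to the Tnnt2high level, and Top2a had a log2 fold change of 1.05 (SE 0.27, adjusted p = 0.0197). Top2a did not pass with the offset (0.84, adjusted p = 0.0948) or in DESeq2 (adjusted p = 0.0665). The condensin genes Ncapg2 and Smc4 had log2 fold changes of 0.83 (adjusted p = 0.024) and 0.49 (adjusted p = 0.0373).

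Few genes of DNA replication passed the test. Of 45 tested, 2 rose and 0 fell, against 10.8% and 10.9% of all genes, with a median of 0.01 (0.06 with the offset). The pair that rose were Clspn, which encodes the checkpoint mediator claspin and had a log2 fold change of 0.96 (adjusted p = 0.012), and Uhrf1, which maintains DNA methylation at the fork, with 0.83 (adjusted p = 0.0104). With the offset Clspn had 0.72 (adjusted p = 0.0967) and Uhrf1 0.72 (adjusted p = 0.0571), without a call. Of the words of Uhrf1, 18.9% are shared. Mcm5, of the replicative helicase, stood at 33.0, 39.2, 35.9 and 47.6 CPM in the Tnnt2low libraries of hearts 3, 4, 5 and 8 and 34.4, 45.6, 60.8 and 30.2 CPM in the matching Tnnt2high libraries, where the populations overlapped (log2 fold change of -0.10, SE 0.21, adjusted p = 0.769). Pcna, the sliding clamp, had 49.0, 65.8, 54.9 and 4.82 CPM in Tnnt2low and 56.6, 43.4, 84.9 and 14.3 CPM in Tnnt2high, with both values of heart 8 below those of the other hearts (log2 fold change of -0.37, SE 0.27, adjusted p = 0.365). Both subunits of ribonucleotide reductase rose, the enzyme that makes deoxynucleotides. Rrm2, its small subunit, had 134, 149, 84.1 and 60.7 CPM in Tnnt2low and 64.9, 61.6, 58.3 and 41.6 CPM in Tnnt2high and a log2 fold change of 0.85 (SE 0.16, adjusted p = 0.00408), and Rrm1, its large subunit, had a log2 fold change of 0.48 (adjusted p = 0.0324). Over 40 genes of the pentose phosphate pathway and nucleotide synthesis, 2 rose, these 2, and 6 fell, against 10.8% and 10.9% of all genes, with a median of -0.21. With the offset the median was -0.14, 1 rose and 2 fell. Among those that fell were Taldo1, the transaldolase of the pentose phosphate pathway, at -0.74 (adjusted p = 0.00297), and Pgd, its phosphogluconate dehydrogenase, at -0.53 (adjusted p = 0.0263). G6pdx, which encodes the first enzyme of that pathway, had -0.53 (adjusted p = 0.499), at 2.54 to 6.66 CPM in the 8 libraries.

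Of 22 DNA damage genes, 5 rose (22.7%, against 10.8% of all genes) and 0 fell, with a median of 0.71 (0.43 with the offset, where 1 rose). Mdc1, a scaffold at broken DNA ends, had 73.2, 65.3, 64.6 and 71.3 CPM in the Tnnt2low libraries of hearts 3, 4, 5 and 8 and 33.0, 29.7, 33.0 and 47.1 CPM in the matching Tnnt2high libraries, without overlap (log2 fold change of 0.96, SE 0.15, adjusted p = 0.00225). Brca1, of homologous recombination, had a log2 fold change of 1.45 (adjusted p = 0.0224), Brca2 of 0.82 (adjusted p = 0.0225) and Atr, the replication stress kinase, of 0.70 (adjusted p = 0.0204). Of 16 G1 regulators tested 2 rose and 2 fell (12.5% each), near the 10.8% and 10.9% of all genes. Ccnd2 (cyclin D2) rose with 0.51 (adjusted p = 0.0268) and Cdkn2c, which encodes the CDK inhibitor p18, with 0.91 (adjusted p = 0.00982), while Cdk4 fell with -0.49 (adjusted p = 0.0431) and Ccnd1 (cyclin D1) with -1.31 (adjusted p = 0.012). With the offset Cdkn2c and Ccnd1 kept their calls, while Ccnd2 had 0.20 (adjusted p = 0.393) and Cdk4 -0.28 (adjusted p = 0.304). Ccnd1 stood at 4.15, 4.70, 7.76 and 12.8 CPM in Tnnt2low and 13.0, 14.8, 22.8 and 17.4 CPM in Tnnt2high. The inhibitor gene Cdkn1a had 0.38 (adjusted p = 0.232) and Rb1, the retinoblastoma protein, 0.02 (adjusted p = 0.952). Of 48 histone genes, 11 fell and 0 rose, with a median of -0.50 that became 0.21 with the offset. In 41 of the 48 at least 5% of the words are shared, and their transcripts are short (median 532 bases), so their direction is uncertain.

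Sarcomere genes, which build the contractile unit of the muscle, moved in both directions. Of 48 tested, 17 fell and 8 rose, where 10.9% and 10.8% of all genes did, with a median of -0.10. Among those that fell, Myl2, the ventricular regulatory light chain of myosin, stood at 9907, 9809, 10610.5 and 11709.9 CPM in the Tnnt2low libraries of hearts 3, 4, 5 and 8 and 19469, 23048, 18774 and 18119.5 CPM in the matching Tnnt2high libraries. The populations were far apart in each heart, with a log2 fold change of -0.91 (SE 0.10, adjusted p = 0.00103). Tnni3, cardiac troponin I, had 3388, 3735, 3598 and 3646 CPM in Tnnt2low and 7455, 7036, 5663 and 5499 CPM in Tnnt2high and a log2 fold change of -0.82 (SE 0.10, adjusted p = 0.00113). Myl3, the ventricular essential light chain, had a log2 fold change of -0.87 (adjusted p = 0.00113), Tnni1, the slow skeletal troponin I of the fetal heart, of -0.84 (adjusted p = 0.00113), and Myoz2, a calcineurin binder of the Z-disc, of -0.63 (adjusted p = 0.0017). Actc1, cardiac alpha-actin, had -0.34 (adjusted p = 0.0112). Among those that rose, Xirp2, at the ends of myofibrils, had 0.77 (adjusted p = 0.0034), Xirp1 0.53 (adjusted p = 0.00344), Flnc, the muscle filamin, 0.55 (adjusted p = 0.00344), Nebl, nebulette of the Z-disc, 0.53 (adjusted p = 0.00973) and the myosin gene Myh7b 0.87 (adjusted p = 0.0118). Myh6 had 0.18 (adjusted p = 0.143) and Ttn, the spring protein titin, 0.16 (adjusted p = 0.463). Myh7, the beta myosin heavy chain, had 0.10 (adjusted p = 0.400), and with the offset -0.26 (adjusted p = 0.0458). Of the words of Myh6 and Myh7, 22.6% and 22.2% are shared with another locus. With the offset, 3 of the 48 fell and 0 rose. The values of Myl2, Tnni3 and Actc1 were then -0.28, -0.20 and 0.07, none past an adjusted p of 0.05.

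Genes for the excitation of heart muscle were called higher in many cases. Of 20 ion channel genes 9 rose and 0 fell (median 0.42, and 0.19 with the offset, where 3 rose). Kcnk3, a potassium channel of a background current, stood at 145, 171, 152 and 176 CPM in the Tnnt2low libraries of hearts 3, 4, 5 and 8 and 71.2, 96.7, 102 and 143 CPM in the matching Tnnt2high libraries. The populations did not overlap, with a log2 fold change of 0.68 (SE 0.14, adjusted p = 0.00659). Kcnj12, of the inward rectifier, had a log2 fold change of 0.72 (adjusted p = 0.0104). Kcnj12 and Kcnk3 passed with the offset too, at 0.80 (adjusted p = 0.0201) and 0.52 (adjusted p = 0.0447). Of 26 calcium handling genes 8 rose and 3 fell, with a median of 0.09 that became -0.06 with the offset, where 1 rose and 0 fell. Jph2, which holds the sarcoplasmic reticulum at the cell membrane, had 612, 616, 459 and 515 CPM in Tnnt2low and 322, 367, 284 and 372 CPM in Tnnt2high and a log2 fold change of 0.71 (SE 0.10, adjusted p = 0.00179), and 0.51 (adjusted p = 0.0129) with the offset. Ryr2, the release channel, had 0.61 (adjusted p = 0.00183) but 0.04 with the offset (adjusted p = 0.792). The 3 that fell were 11.5% of the list, near the 10.9% of all genes. They were S100a1 at -0.90 (adjusted p = 0.00178), Pln, phospholamban, at -0.37 (adjusted p = 0.0298) and Sri, sorcin, at -0.47 (adjusted p = 0.0471). Sri did not pass in edgeR without the heart as a block (adjusted p = 0.199) or in DESeq2 (adjusted p = 0.0647). Atp2a2, the calcium pump of the reticulum, had 0.22 (adjusted p = 0.0517).

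At the intercalated disc, which couples heart muscle cells, 6 of 15 genes rose and 0 fell, among them Dsp, desmoplakin, at 0.54 (adjusted p = 0.00392) and Cdh2, N-cadherin, at 0.46 (adjusted p = 0.00595). Their median of 0.42 was 0.10 with the offset, where 1 rose. Gja1, the gap junction protein connexin 43, had 0.18 (adjusted p = 0.148). Of 27 cardiac transcription factors 13 rose and 1 fell, Hopx, at -0.64 (adjusted p = 0.00278). Gata4, an early heart factor, stood at 338, 326, 269 and 266 CPM in the Tnnt2low libraries of hearts 3, 4, 5 and 8 and 233, 253, 224 and 231 CPM in the matching Tnnt2high libraries, with a gap between the populations in each heart and a log2 fold change of 0.34 (SE 0.10, adjusted p = 0.0367). Mef2a had 0.56 (adjusted p = 0.00341), Prox1 0.68 (adjusted p = 0.0035) and Tbx20 0.48 (adjusted p = 0.00522). Ppara, the nuclear receptor that turns on fatty acid oxidation, had 0.75 (adjusted p = 0.00667), and its coactivators Ppargc1b and Ppargc1a had 0.66 (adjusted p = 0.0059) and 0.37 (adjusted p = 0.0314). With the offset the median of the factors was 0.28, and the 2 that rose were Ppara at 0.68 (adjusted p = 0.0379) and Ppargc1b at 0.52 (adjusted p = 0.0413). The populations overlapped for Ppara, which did not pass in edgeR without the heart as a block (adjusted p = 0.132). Wall stress genes fell in 3 of 5 cases and rose in 0. Nppa, atrial natriuretic peptide, had -0.55 (adjusted p = 0.00272), Nppb, brain natriuretic peptide, -0.51 (adjusted p = 0.0156) and Acta1, skeletal actin, -0.69 (adjusted p = 0.0036). With the offset the signs of Nppa and Nppb turned, at 0.10 and 0.19, with no call. Of 18 genes of the dystrophin complex, which anchors the cell to the matrix, 5 rose and 1 fell, where 10.8% and 10.9% of all genes did. Their median was 0.31, and it became -0.09 with the offset.

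The respiratory chain of the mitochondria makes most of the ATP of the heart, and its nuclear genes fell in Tnnt2low cells. Of 77 tested, 67 fell, where 10.9% of all genes did, and 1 rose. The median was -0.87, with -1.18, -0.94, -0.70 and -0.60 in hearts 3, 4, 5 and 8. The summed level was 35863, 39166, 38441 and 40890.5 CPM in Tnnt2low and 70495, 68245, 57404 and 58544 CPM in Tnnt2high cells, so it was lower in Tnnt2low cells of every heart. Cox5a, a subunit of complex IV, stood at 343, 332, 312 and 338 CPM in the Tnnt2low libraries of hearts 3, 4, 5 and 8 and 663, 763, 571 and 584 CPM in the matching Tnnt2high libraries. Its populations did not overlap (log2 fold change of -0.95, SE 0.10, adjusted p = 9.51e-04). Ndufa11, of complex I, had 160.2, 171, 196 and 206 CPM in Tnnt2low and 389, 456, 397 and 366 CPM in Tnnt2high and a log2 fold change of -1.13 (SE 0.12, adjusted p = 9.28e-04). Ndufc2 had -1.003 (adjusted p = 0.00105), Ndufa1 -1.13 (adjusted p = 0.00105) and Atp5o, of the ATP synthase, -1.09 (adjusted p = 9.28e-04), with 19.1% of the words of Atp5o shared. The gene that rose was Ndufab1, the mitochondrial acyl carrier protein, at 43.3, 38.3, 162 and 2.28 CPM in Tnnt2low and 3.87, 3.57, 7.44 and 3.33 CPM in Tnnt2high. It was lower in Tnnt2low cells of heart 8 alone, and 12.3% of its words are shared (log2 fold change of 3.17, SE 0.57, adjusted p = 0.00368). The members are short, with a median length of 908 bases. With the offset the median was -0.24, 15 of 77 fell (2.35% of all genes) and 1 rose. Ndufa11 still fell there, at -0.53 (adjusted p = 0.0184), while Cox5a had -0.19 (adjusted p = 0.314).

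The mitochondrial ribosome translates the messages of the mitochondrial genome. Its genes were lower in 49 of 77 cases and higher in 0, with a median of -0.66, and 11 lower with a median of -0.24 under the offset. Mrps24, of its small subunit, had -1.03 (adjusted p = 0.00113) and Mrpl52, of its large subunit, -1.01 (adjusted p = 0.00119). Without heart 3 the number that fell was 30. Of 22 genes of protein import, 12 fell (median -0.61, and -0.19 with the offset, where 2 fell). Timm10b, a chaperone of the space between the membranes, had -1.05 (adjusted p = 0.00249) and -1.08 with the offset (adjusted p = 0.00976). Of 24 genes of the tricarboxylic acid cycle and malate shuttle 9 fell and 0 rose, with a median of -0.27 (-0.09 with the offset, where 3 fell). Mdh1, the malate dehydrogenase of the cytosol, stood at 1439, 1616, 1529 and 1588 CPM in the Tnnt2low libraries of hearts 3, 4, 5 and 8 and 3161, 3118, 2373 and 2454 CPM in the matching Tnnt2high libraries. Each Tnnt2low value was below every Tnnt2high value, and Mdh1 had a log2 fold change of -0.84 (SE 0.10, adjusted p = 0.00113) that was -0.62 with the offset (adjusted p = 0.00532). Mpc2, of the mitochondrial pyruvate carrier, had -1.10 (adjusted p = 0.00167) and -0.52 with the offset (adjusted p = 0.0464). Fh1, fumarate hydratase, had -0.52 (adjusted p = 0.0059) and -0.44 with the offset (adjusted p = 0.026).

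Fatty acid oxidation becomes the main source of energy of the heart after birth. Of 30 of its genes 17 fell and 2 rose, where 10.9% and 10.8% of all genes did, with a median of -0.43 (-0.20 with the offset, where 3 fell and 0 rose). Fabp3, the fatty acid binding protein of heart muscle, had -0.71 (adjusted p = 0.00113), though 29.2% of its words are shared and its value was -0.04 with the offset. Acads, the short-chain acyl-CoA dehydrogenase, had 318, 309, 296 and 330.4 CPM in the Tnnt2low libraries of hearts 3, 4, 5 and 8 and 484, 555, 491 and 479.7 CPM in the matching Tnnt2high libraries, lower in each Tnnt2low library (log2 fold change of -0.68, SE 0.10, adjusted p = 0.00172, and -0.43 with the offset at an adjusted p of 0.0266). Eci1, an enoyl-CoA isomerase, had -0.91 (adjusted p = 0.00149), and Cd36, which takes fatty acids into the cell, -0.35 (adjusted p = 0.0174). The pair that rose were Lpl, lipoprotein lipase, at 0.35 (adjusted p = 0.0425), and Cpt1a, the carnitine palmitoyltransferase isoform of liver and fetal heart, at 189.5, 177, 165 and 183 CPM in Tnnt2low and 115, 99.2, 129 and 124 CPM in Tnnt2high. Every Tnnt2low value of Cpt1a was above the Tnnt2high values (log2 fold change of 0.62, SE 0.12, adjusted p = 0.00529). With the offset Cpt1a had 0.43 (adjusted p = 0.0579) and Lpl 0.24 (adjusted p = 0.152), without a call. Cpt1b, the muscle isoform, had -0.51 (adjusted p = 0.204).

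The steps of glucose use moved unevenly. Slc2a1, the mouse gene of Glut1, stood at 80.4, 92.0, 44.3 and 74.7 CPM in the Tnnt2low libraries of hearts 3, 4, 5 and 8 and 74.5, 92.9, 33.5 and 54.0 CPM in the matching Tnnt2high libraries. The populations overlapped, and the hearts had the same order in both (log2 fold change of 0.24, SE 0.14, adjusted p = 0.252). Whether reads of the human GLUT1 transgene were counted under Slc2a1 was not tested. Slc2a4, which encodes the insulin-responsive Glut4, had 91.4, 94.1, 102 and 88.1 CPM in Tnnt2low and 86.1, 104, 134 and 103 CPM in Tnnt2high, again with overlap (log2 fold change of -0.17, SE 0.13, adjusted p = 0.380), and Slc2a3 had -0.19 (adjusted p = 0.567). Of 5 transporter genes tested of 11, 0 passed. Hexokinase traps glucose in the cell, and both Hk1 and Hk2 rose. Hk2, the insulin-responsive form, had 164, 192, 191 and 219.6 CPM in Tnnt2low and 117, 124, 179.6 and 140.5 CPM in Tnnt2high, higher within every heart (log2 fold change of 0.46, SE 0.13, adjusted p = 0.0245), and Hk1 had 0.33 (adjusted p = 0.0298). Pfkfb2, of the enzyme that makes the activator of phosphofructokinase, had 0.80 (adjusted p = 0.0338). Further down, 9 of the 20 glycolytic genes fell. Eno3, the muscle enolase, stood at 888, 1051, 935 and 971 CPM in Tnnt2low and 1838, 1879, 1586 and 1524 CPM in Tnnt2high, with no overlap (log2 fold change of -0.82, SE 0.09, adjusted p = 0.00105, and -0.45 with the offset at an adjusted p of 0.0135). Pgam2 had -0.71 (adjusted p = 0.00113), Aldoa, the muscle aldolase, -0.61 (adjusted p = 0.00162), Ldhb, lactate dehydrogenase of the heart, -0.67 (adjusted p = 0.00291) and Ldha -0.54 (adjusted p = 0.00288). Of the words of Aldoa, Ldha and Ldhb, 13.5%, 16.6% and 27.0% are shared. Pfkm, the muscle phosphofructokinase, had -0.26 (adjusted p = 0.111). The median of glycolytic genes was -0.31 (-0.20 with the offset, where 2 fell and 0 rose). The hexokinases were 0.12 and 0.17 for Hk1 and Hk2 with the offset, without a call.

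Of 23 glycogen genes 2 rose and 4 fell, near the shares of all genes, with a median of 0.01. With the offset the median was -0.11, and 0 rose or fell. Ppp1r3b, which brings protein phosphatase 1 to glycogen, had 0.60 (adjusted p = 0.0137), and Gyg, glycogenin, which starts the particle, -0.42 (adjusted p = 0.0308). Of 7 genes of the hexosamine and polyol pathways 0 passed the test, among them Ogt, which adds N-acetylglucosamine to proteins, at 0.17 (adjusted p = 0.361). Mlxipl, which encodes the glucose-sensing factor ChREBP, rose with 0.94 (adjusted p = 0.0392) and was 0.81 with the offset (adjusted p = 0.144). Txnip, a target of such factors, stood at 487, 405, 744 and 703 CPM in the Tnnt2low libraries of hearts 3, 4, 5 and 8 and 674, 502, 701 and 717 CPM in the matching Tnnt2high libraries, where neither population was consistently higher (log2 fold change of -0.18, SE 0.11, adjusted p = 0.273).

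Genes of the cytosolic ribosome, which translates nuclear messages, had the lowest median of the lists with over 20 genes tested, at -0.94, with 45 of 71 lower and 0 higher. In 68 of the 71 at least 5% of the words are shared with another locus, so single values are uncertain. Rpl35 had 77.8, 118, 126 and 93.3 CPM in the Tnnt2low libraries of hearts 3, 4, 5 and 8 and 431, 487, 486 and 279 CPM in the matching Tnnt2high libraries. It was lower in every Tnnt2low library (log2 fold change of -2.01, SE 0.14, adjusted p = 1.40e-04, and -1.41 with the offset at an adjusted p of 5.96e-04), with 40.1% of its words shared. Rplp0, of the ribosomal stalk, had -0.82 (adjusted p = 0.00113) and -0.37 with the offset (adjusted p = 0.0319). Rpl10 and Rps7, at -3.49 (adjusted p = 0.00472) and -3.44 (adjusted p = 0.00269), were among the 12 largest falls, and 85.4% and 59.9% of their words are shared. With the offset the list had a median of -0.34, and 14 of its genes fell. The gene model Gm6654 stood at 0, 1.46, 0 and 0 CPM in Tnnt2low and 147, 117, 66.7 and 121 CPM in Tnnt2high, the largest fall of the fit (-8.29 on the log2 scale, a size that depends on the counts near 0). Of its words 42.5% are shared, and where its reads come from is not known. Of 36 proteasome subunits, 26 fell and 0 rose (median -0.65, and -0.21 with the offset). Psmb1, a subunit of the catalytic core, had -0.99 (adjusted p = 0.00113) and was the 1 that fell with the offset, at -0.76 (adjusted p = 0.00697).

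Chromatin regulators with long transcripts were called in the other direction, with 34 of 37 higher (10.8% over all genes) and 0 lower. Their median was 0.70, with 0.95, 0.75, 0.48 and 0.62 in hearts 3, 4, 5 and 8, and it was 0.26 with the offset, where 6 rose. The list was chosen for long transcripts, with a median of 9342 bases. Arid1a, of the SWI/SNF remodeler, stood at 432, 365, 330.5 and 329.7 CPM in the Tnnt2low libraries of hearts 3, 4, 5 and 8 and 171, 182, 187 and 227 CPM in the matching Tnnt2high libraries. The populations were apart in every heart (log2 fold change of 0.92, SE 0.13, adjusted p = 0.00168), and with the offset Arid1a had 0.52 (adjusted p = 0.0201). Kmt2d, a histone H3 methyltransferase of enhancers, had 1.05 (adjusted p = 0.00115) and 0.50 with the offset (adjusted p = 0.0184). Spen, a corepressor, had 1.06 (adjusted p = 0.00113) and 0.56 (adjusted p = 0.021). Of 10 genes of microRNA silencing 7 rose and 0 fell, with a median of 0.80 (0.35 with the offset, where 2 rose). Ago2, the Argonaute protein that cuts its targets, had 223, 249, 199 and 282 CPM in Tnnt2low and 85.7, 102, 115 and 141 CPM in Tnnt2high and a log2 fold change of 1.11 (SE 0.13, adjusted p = 0.00113), which was 0.57 with the offset (adjusted p = 0.0162). Tnrc6c, a GW182 protein, had 1.29 (adjusted p = 0.00113) and 0.84 (adjusted p = 0.0201). Dicer1, which cuts the precursors, had 0.62 (adjusted p = 0.0116) and 0.16 (adjusted p = 0.540).

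Growth signals to heart muscle cells act through the insulin, IGF and ErbB receptors. Of 10 genes of these pathways 5 rose and 0 fell (median 0.57, and 0.19 with the offset, where 1 rose and 1 fell). Irs2, an adaptor of the insulin receptor, stood at 164, 123, 75.6 and 50.6 CPM in the Tnnt2low libraries of hearts 3, 4, 5 and 8 and 79.6, 52.8, 34.0 and 30.7 CPM in the matching Tnnt2high libraries. Hearts 3 and 4 had higher levels than hearts 5 and 8 within each population, and within each heart Tnnt2low was higher (log2 fold change of 1.04, SE 0.14, adjusted p = 0.00131, and 0.67 with the offset at an adjusted p of 0.0192). Igf1r had 0.89 (adjusted p = 0.00337), Insr 0.68 (adjusted p = 0.0031) and Irs1 0.87 (adjusted p = 0.00149). Erbb2 and Erbb4, the neuregulin receptors, had 0.25 (adjusted p = 0.247) and 0.48 (adjusted p = 0.0594). Among 9 imprinted genes of fetal growth, 3 rose and 1 fell, where 10.8% and 10.9% of all genes did. The 1 that fell was the noncoding RNA H19, at 263, 363, 385 and 374 CPM in Tnnt2low and 470.2, 591, 895 and 615 CPM in Tnnt2high. Every Tnnt2low value of H19 was below the lowest Tnnt2high value (log2 fold change of -0.87, SE 0.11, adjusted p = 0.00118, and -0.74 with the offset at an adjusted p of 0.00697). Igf2, its neighbour, had -0.25 (adjusted p = 0.0946), and -0.51 with the offset (adjusted p = 0.0142). The median of the imprinted genes was 0.16, and 0.09 with the offset, where 0 rose and 2 fell, H19 and Igf2.

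The Hippo kinases hold back the coactivator YAP, which with TEAD factors promotes growth of the neonatal heart. Of 24 genes of this pathway 8 rose (33.3%, against 10.8% of all genes) and 0 fell, with a median of 0.32 (0.20 with the offset, where 3 rose). Tead1 stood at 346, 349, 322 and 339 CPM in the Tnnt2low libraries of hearts 3, 4, 5 and 8 and 162, 174, 205 and 234 CPM in the matching Tnnt2high libraries, without overlap (log2 fold change of 0.82, SE 0.12, adjusted p = 0.00183). Yap1 had 0.46 (adjusted p = 0.0323), Lats2, an inhibitory kinase, 0.60 (adjusted p = 0.022), Nf2, which activates the kinases, 0.53 (adjusted p = 0.0182) and Fat1, an atypical cadherin, 1.02 (adjusted p = 0.00113). Among targets of YAP, Cyr61 rose, at 204, 148, 143 and 154 CPM in Tnnt2low and 125, 82.2, 58.6 and 58.5 CPM in Tnnt2high (log2 fold change of 1.06, SE 0.14, adjusted p = 0.00149), whereas Ctgf had 0.14 (adjusted p = 0.400) and Ankrd1 0.21 (adjusted p = 0.142). With the offset Cyr61 had 1.27 (adjusted p = 0.00173) and Ankrd1 0.43 (adjusted p = 0.0203). Of 18 Notch genes 3 rose and 2 fell, near the 10.8% and 10.9% of all genes, and 1 rose and 2 fell with the offset. Neurl1b, a ubiquitin ligase of Notch ligands, had 139.8, 152, 60.2 and 42.0 CPM in Tnnt2low and 21.0, 28.3, 33.2 and 22.1 CPM in Tnnt2high and a log2 fold change of 1.74 (SE 0.30, adjusted p = 0.00338). Hearts 3 and 4 held the larger rises of Neurl1b. Mib1, another ligase of the ligands, had 0.62 (adjusted p = 0.014) and the receptor Notch2 0.49 (adjusted p = 0.0457), while the receptors Notch1 and Notch3 fell at -1.75 (adjusted p = 0.0132) and -2.56 (adjusted p = 0.00241). Bcl2, which blocks cell death, was among the 12 largest rises, at 18.7, 18.1, 16.4 and 28.9 CPM in Tnnt2low and 4.68, 3.30, 4.96 and 14.3 CPM in Tnnt2high (log2 fold change of 1.74, SE 0.29, adjusted p = 0.00295).

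Immediate early genes respond within minutes to stimuli, the dissociation of tissue among them. Of 26 tested 9 rose and 2 fell, with a median of 0.34 and, with the offset, 0.36, where 7 rose. Fosb, which had the largest rise among genes higher in all 4 hearts at a mean of 10 CPM or more, stood at 60.4, 38.1, 140.4 and 141 CPM in the Tnnt2low libraries of hearts 3, 4, 5 and 8 and 14.0, 16.8, 26.3 and 41.1 CPM in the matching Tnnt2high libraries. Levels of Fosb were higher in both populations of hearts 5 and 8 than in those of hearts 3 and 4, and within each heart Tnnt2low was higher (log2 fold change of 1.88, SE 0.19, adjusted p = 9.28e-04). Fos had 173, 105, 295 and 274 CPM in Tnnt2low and 71.2, 64.0, 170.4 and 123 CPM in Tnnt2high and a log2 fold change of 0.99 (SE 0.13, adjusted p = 0.00131). Egr1 had 0.80 (adjusted p = 0.00246) and Atf3 0.83 (adjusted p = 0.00269). Fosb, Fos, Egr1 and Atf3 passed with the offset too, at 1.73, 1.18, 0.57 and 1.06. The 2 that fell were Ier3 at -1.03 (adjusted p = 0.0248) and Zfp36 at -0.76 (adjusted p = 0.0391). Of 19 heat shock genes 4 fell (21.1%, against 10.9% of all genes), led by the small chaperone Cryab at -0.74 (adjusted p = 0.00275), and 0 rose. With the offset 0 of them fell. Malat1 and Neat1, RNAs kept in the nucleus, had -0.08 (adjusted p = 0.701) and 0.47 (adjusted p = 0.225).

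Fibroblast and endothelial markers fell in Tnnt2low cells. In a sorted population, fewer cells of a type and less RNA per cell cannot be told apart. The sort gated on YFP, and how far this gate removed both cell types was not tested. Of 19 fibroblast and matrix genes tested of 24, 15 fell and 0 rose, with a median of -2.42 (-2.64 with the offset, where 12 fell). Their summed level was 264, 236, 263 and 319 CPM in Tnnt2low and 1689, 596, 965 and 540.3 CPM in Tnnt2high cells of hearts 3, 4, 5 and 8. The populations did not overlap, and the difference was widest in heart 3 and narrowest in heart 8. Col1a1, collagen I, stood at 11.5 to 33.5 CPM in Tnnt2low and 49.9 to 281 CPM in Tnnt2high, lower in each heart (log2 fold change of -2.66, SE 0.46, adjusted p = 0.00332), and Fn1, fibronectin, had -2.22 (adjusted p = 0.00162). Eln, elastin, had 2.99, 7.61, 7.01 and 4.31 CPM in Tnnt2low and 57.6, 37.4, 13.1 and 68.2 CPM in Tnnt2high (log2 fold change of -2.88, SE 0.48, adjusted p = 0.00289). Of 17 endothelial genes tested of 18, 13 fell and 0 rose, with a median of -2.25 (-2.40 with the offset, where 11 fell). Their summed level was 19.9, 21.9, 90.2 and 133 CPM in Tnnt2low and 67.2, 206, 484 and 430.2 CPM in Tnnt2high cells. It was lower in Tnnt2low cells of each heart, but hearts differed so much that the populations overlapped. Without the heart as a block 9 endothelial genes fell in the 8 libraries, and 1 fell in the fit of all 12 libraries without the block, which also adds the WT libraries. Pecam1, a junction protein of endothelial cells, had 0.289, 2.24, 7.01 and 10.5 CPM in Tnnt2low and 7.33, 20.9, 43.4 and 46.1 CPM in Tnnt2high (log2 fold change of -2.86, SE 0.33, adjusted p = 0.00113).

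**Figure D3:**
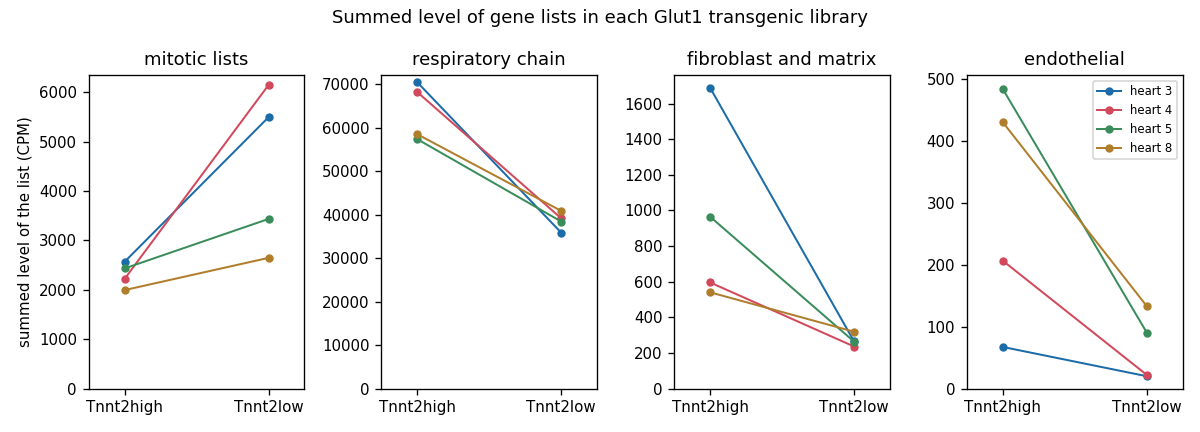
Summed level in CPM (vertical axes, from 0) of the 4 mitotic lists, the respiratory chain, fibroblast and matrix markers and endothelial markers in Tnnt2high and Tnnt2low libraries, where each point is 1 library and lines join the populations of 1 heart. Mitotic genes are higher and the other 3 sums lower in Tnnt2low cells of all 4 hearts.

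Other cell types gave few reads. All 16 leukocyte markers together reached 2.66 to 7.13 CPM in Tnnt2low and 0 to 18.1 CPM in Tnnt2high libraries, and 0 passed the filter on low counts. Of these, 2 were at 0 in all 8 libraries, Cd52 and Cd3e. The 9 erythroid markers of the files summed to at most 3.80 CPM, and 6 of them were at 0 throughout, Hba-a1 and Hbb-bs included. Genes in wide use, such as Rpl26 and Ndufs5, were also listed at 0 in all 8 libraries, so a 0 in these files does not show that no RNA was there. Of 9 epicardial markers 2 were tested, and the sum was 9.003 to 21.3 CPM in Tnnt2low and 10.7 to 21.0 CPM in Tnnt2high libraries. Those of Schwann cells and neurons summed to at most 12.3 CPM. Of 7 smooth muscle and pericyte genes 3 fell and 1 rose, where 10.9% and 10.8% of all genes did. Their sum was 925 to 1127 CPM in Tnnt2low and 1056 to 1630 CPM in Tnnt2high libraries, mostly from Acta2, which neonatal heart muscle also expresses and which had a log2 fold change of -0.41 (adjusted p = 0.0187). Ventricular markers summed to 18579 to 24550.4 CPM in Tnnt2low and 33070.3 to 40142 CPM in Tnnt2high cells, where Myl2 and Myl3 fell and Lbh rose with 0.41 (adjusted p = 0.0131). Myl2 and Myl3 made up most of this sum, and with the offset they had -0.28 (adjusted p = 0.110) and -0.26 (adjusted p = 0.114). Of the 7 markers tested, 5 had a positive log2 fold change. Their median was 0.16, and 0.28 with the offset, so the list did not follow its sum. Atrial markers summed to 513 to 996 CPM and 713 to 1381 CPM, where 1 of 8 (12.5%) fell, Nppa, near the 10.9% of all genes. The part of fibroblast and endothelial RNA in the other fold changes was not tested.

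In WT hearts 0 of 12252 genes differed between Tnnt2low and Tnnt2high cells at an adjusted p under 0.05 in edgeR, with 381 (3.11%) at an unadjusted p under 0.05. This test had 2 libraries per population, and the WT pairs did not look alike. In WT pair 1, the reads outside exons were 1.13 times those in genes for Tnnt2low and 1.83 times for Tnnt2high cells. In WT pair 2 these ratios were 1.495 and 1.51. List medians in WT pair 1 were -0.81 for the respiratory chain and 0.63 for long chromatin regulators, values within the range of the 4 Glut1 transgenic hearts, while those in WT pair 2 were 0.02 and 0.08. For the mitotic lists together they were 0.21 in WT pair 1 and -0.03 in WT pair 2, below each of the 4 Glut1 transgenic hearts, where the lowest was 0.31.

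**Figure D4:**
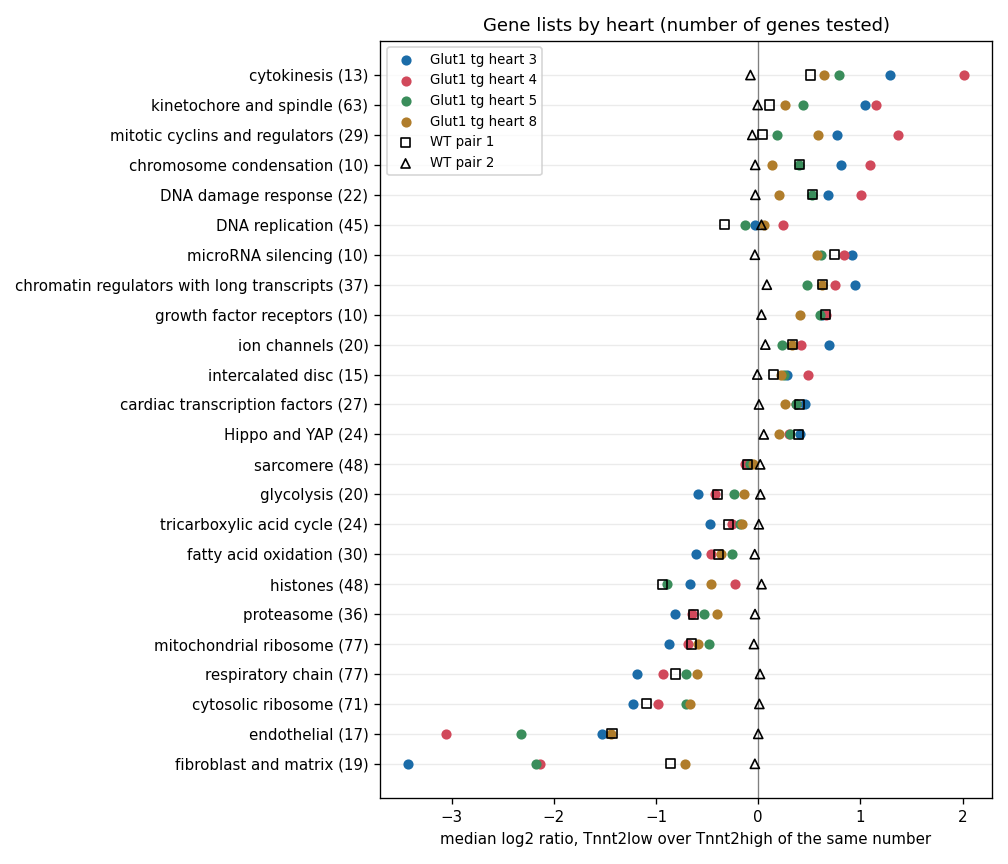
Median log2 ratio of Tnnt2low over Tnnt2high (horizontal axis) over the tested genes of 24 lists (vertical axis, number of genes in brackets), as 1 point per Glut1 transgenic heart and open symbols for the WT pairs. WT pair 2 stays within 0.084 of 0 in all 24 lists, and for cytokinesis, kinetochore and mitotic cyclin genes all 4 Glut1 transgenic hearts lie to the right of both WT pairs. For chromosome condensation WT pair 1, at 0.40, lies to the right of heart 5 (0.395) and heart 8 (0.13).

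The difference of the Tnnt2low against Tnnt2high change between Glut1 transgenic and WT hearts was tested in a fit of all 12 libraries. No gene passed at an adjusted p under 0.05, 554 (4.52%) had an unadjusted p under 0.05, and the smallest adjusted p was 0.698. With the library number as a block 0 passed again, with 618 (5.04%) at an unadjusted p under 0.05. For the 115 mitotic genes the median log2 fold change was 0.86 in Glut1 transgenic and 0.08 in WT hearts in this fit. Of these, 106 had a larger log2 fold change in Glut1 transgenic hearts, and 22 had an unadjusted p under 0.05 for the difference. Over the 11178 genes of the main test these numbers were 5777 and 513. The WT libraries may stem from 1 heart, so their spread may be technical. For Mki67 the WT value was 0.30 and the difference 1.64 (unadjusted p = 0.0143 in edgeR, adjusted p = 0.961). For Cenpe these were 0.13 and 1.40 (unadjusted p = 0.00889 in edgeR, adjusted p = 0.961), and for Racgap1 0.11 and 1.22 (unadjusted p = 0.0181, adjusted p = 0.961). The level of Mki67 in WT pairs 1 and 2, scaled with all 12 libraries, was 266 and 428 CPM in Tnnt2low and 154 and 408 CPM in Tnnt2high. In Glut1 transgenic hearts Mki67 ranged from 236 to 688 CPM in Tnnt2low and from 95.6 to 164 CPM in Tnnt2high. Both WT Tnnt2low levels of Mki67 thus lay within the range of Glut1 transgenic Tnnt2low libraries. For Eln the WT value was 0.51 and the difference -3.51 (unadjusted p = 2.82e-04, adjusted p = 0.698). Respiratory chain genes had medians of -0.86 and -0.39, and long chromatin regulators 0.70 and 0.32. No gene thus passed the test of a difference between the genotypes, which does not show that the populations differ alike in both.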

How the data were processed

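For each library of sorted cardiomyocytes the authors deposited raw read counts per gene. Single-end reads had been trimmed, aligned to mm10 with HISAT2 and counted over the union of exons with HTSeq (versions, counting mode and strand: not given in the sources used here), so overlapping and antisense genes are uncertain. The 5 summary rows stayed out of library sizes and tests.

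The main test was that of edgeR 4.0.16 in R 4.3.3 (TMM, filterByExpr by population, quasi-likelihood test, Benjamini-Hochberg adjustment), with the heart as a block. Libraries carrying the same heart number come from the same heart by their labels. Their deviations from the population means correlated at 0.27, 0.15, 0.13 and 0.13 for hearts 3, 4, 5 and 8. Between Tnnt2low and Tnnt2high libraries of different hearts this correlation ran from -0.18 to 0.12. Replicates differed beyond counting noise (chi-square per gene of 13.4 to 26.1). The biological coefficient of variation was 0.253. Log ratios per heart used a prior count of 2, and WT ratios per pair a pseudocount of 0.5 CPM. Exact permutation tests assigned libraries freely, with an exchange within hearts added after seeing the data. The offset was a loess fit on length and GC content from GENCODE vM21 (98.46% of genes matched), and shared sequence was the share of 50-base words of a gene found in transcripts of another locus. DESeq2 1.42.0 was an alternative. The scripts were tested on simulated data.

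Lists (46) and members were chosen with earlier results of these data known. Genes were named by a rule: those named on the RNA-seq in the main text of the study (here Tnnt2, its picture of a heatmap was not read), the 12 largest rises and falls past the threshold in all 4 hearts at 10 CPM or more on average, up to 5 members per list and direction, and members whose role is described. The study's supplementary list of top upregulated genes was not used for the rule, but it already holds genes named here, such as Mki67, Cenpf, Fosb and Foxm1. A gene of the rule is not reported here. Figures used Python 3.11.15 and matplotlib 3.10.9.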

Additional observations from a re-analysis of the deposited data

Results flagged for a closer look

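Among the 4 Glut1 transgenic Tnnt2high libraries, that of heart 3 stood apart in its number of reads in genes, at 5241475 against 4065306 to 4245286 in the other 3. This was the 1 value of 77 sets of 4 (library measures, list medians by heart and the log2 ratios of Tnnt2 and of the largest rises and falls) whose gap passed Dixon's limit, and about 1 in 20 such sets would pass it by chance. Without heart 3, 511 genes rose and 663 fell.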

How the results depend on the processing

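Limits come first from processing and depth. Tnnt2high libraries held fewer reads in genes than Tnnt2low libraries, and calls of genes near the filter rest on few reads. With the length and GC offset, 155 genes rose and 263 fell. Members called with the offset numbered 26 in the mitotic lists, 3 lower in the sarcomere, 15 lower in the respiratory chain, 11 lower in the mitochondrial ribosome, 14 lower in the cytosolic ribosome, 1 lower in the proteasome and 6 higher among long chromatin regulators. The cause of these shifts was not tested. Tnnt2 (0.088), Actc1 (0.074), Nppa (0.10), Nppb (0.19), Hspb6 (0.11), Notch2 (-0.0074), Lama2 (-0.059), Dmd (-0.12) and Myh7 (-0.26, now called) turned their sign with the offset, as did the medians of histones (0.21), natriuretic peptides and stress (0.10) and the dystrophin complex (-0.089). In all, 10 list medians had the other sign with the offset, among them calcium handling (-0.065), glycogen (-0.11) and atrial markers (0.11), as had further named genes without a call, such as Ogt (-0.046). The median of the hexosamine and polyol list turned to -0.058 in the fit of all 12 libraries without the block.

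When each heart was left out in turn, 511 to 1063 genes rose and 616 to 1102 fell. The calls in the lists were 22 to 52 for mitosis, 14 to 17 for sarcomere, 65 to 68 for respiratory chain, 30 to 51 for mitochondrial ribosome, 37 to 44 for cytosolic ribosome, 19 to 25 for proteasome, 24 to 31 for chromatin regulators, 10 to 14 for fibroblast and 9 to 12 for endothelial genes. With a fold change over 1.5, 778 genes rose. Without the replicate block, 1021 genes rose and 1104 fell in the 8 libraries and 1032 rose and 1020 fell in all 12, where 1 endothelial gene fell, against 9 in the 8 libraries without the block. In the strict filter, 8 of 9 endothelial genes tested fell. Leaving out genes with at least 5% shared words, an alternative added after seeing the data, gave 1309 rises and 1247 falls, with 2 of 3 genes of the cytosolic ribosome lower. DESeq2 gave 1229 rises and 1292 falls, the size factors of DESeq2 1182 and 1239, no filter 1535 and 1423, and upper-quartile scaling 1026 and 1386. The count of genes that differ between genotypes was 0 with and without the block by library number. Of 217 called genes named by the rule, 84 kept their call with the offset.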
